A study of Mus musculus with 9 samples.

Results

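The genes described here are 10 genes of epithelial identity and cell junctions: Epcam, Cdh1, Cldn1, Cldn3, Cldn7, Esrp1, Grhl2, Trp63, Ehf and Elf3. They were taken as every probe set of the array annotated to exactly 1 of these symbols, which gave 26 probe sets for 10 genes, of 45101 probe sets and 18193 named genes on the array. Each gene was read through its brightest probe set, and all 10 were among the 10937 genes bright enough to be tested.

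The study followed mouse thymic stroma through radiation injury and the days after it. Non-hematopoietic stromal cells of the thymus were obtained from female C57BL/6J mice aged 6 to 8 weeks by magnetic depletion of cells bearing CD45, the surface protein of blood cells. Cells of several mice were pooled for each sample. The 3 groups, each of 3 arrays, were untreated mice, mice 4 days after irradiation and mice 7 days after it. Irradiated mice had received sublethal total-body irradiation (550 cGy, cesium source irradiator) with no rescue by transplanted hematopoietic cells, and all groups share strain, sex, age and depletion. No label ties the arrays of a group to distinct pools of mice, so p-values measure the spread between these samples, which may be technical.

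Epithelial cells are held together by adherens junctions, in which the cadherin encoded by Cdh1 binds its like on the neighbouring cell, and sealed by tight junctions, whose strands are built of claudins. Epcam, a surface glycoprotein of epithelia, binds claudins and is the usual sorting marker of thymic epithelial cells. Grainyhead-like factors such as Grhl2 switch on junction genes, Trp63 keeps the progenitor capacity of stratified and thymic epithelium, Esrp1 directs epithelial splicing, and Ehf and Elf3 are ETS-family factors of epithelia. In the thymus the cortical and medullary epithelium differ in these genes, and claudins such as Cldn3 are known from medullary cells.

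Promoter sequence was given for 5 of the 10 genes, and all 5 genes are shown: Cldn3, Cldn7 and Elf3, which were lower at day 7, beside Epcam and Cldn1, which were not called. None of the genes called higher is among them. They are RefSeq sequences of GRCm38.p6 covering 250 bases before and 50 bases from a start of the gene. All are read 5′ to 3′ on the gene's strand. Capitals mark CAGGTG or its reverse complement CACCTG, the E-box bound by Snail and Zeb repressors, and ACCGGT, a core of the grainyhead-like motif. The windows are chr17:87635729-87636028 (plus strand) for Epcam, chr16:26371790-26372089 (minus strand) for Cldn1, chr5:134985964-134986263 (plus strand) for Cldn3, chr11:69965171-69965470 (plus strand, the downstream of its 2 starts) for Cldn7 and chr1:135258423-135258722 (minus strand) for Elf3.
Epcam promoter: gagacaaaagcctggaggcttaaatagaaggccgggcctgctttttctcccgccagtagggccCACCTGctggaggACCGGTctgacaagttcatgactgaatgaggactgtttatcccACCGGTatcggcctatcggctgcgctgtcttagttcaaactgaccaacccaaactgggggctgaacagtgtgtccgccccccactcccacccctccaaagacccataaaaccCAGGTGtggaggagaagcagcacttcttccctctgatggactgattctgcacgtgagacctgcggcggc
Cldn1 promoter: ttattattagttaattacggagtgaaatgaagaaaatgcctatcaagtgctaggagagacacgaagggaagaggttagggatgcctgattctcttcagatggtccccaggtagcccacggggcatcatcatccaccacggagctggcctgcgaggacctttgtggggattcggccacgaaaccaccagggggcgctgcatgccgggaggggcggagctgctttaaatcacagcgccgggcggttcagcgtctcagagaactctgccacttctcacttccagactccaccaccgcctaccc
Cldn3 promoter: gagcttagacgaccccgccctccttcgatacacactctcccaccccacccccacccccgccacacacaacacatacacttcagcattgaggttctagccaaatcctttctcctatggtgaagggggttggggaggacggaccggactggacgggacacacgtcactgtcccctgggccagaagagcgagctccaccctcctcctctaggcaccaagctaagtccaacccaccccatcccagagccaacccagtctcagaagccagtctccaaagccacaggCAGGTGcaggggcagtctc
Cldn7 promoter: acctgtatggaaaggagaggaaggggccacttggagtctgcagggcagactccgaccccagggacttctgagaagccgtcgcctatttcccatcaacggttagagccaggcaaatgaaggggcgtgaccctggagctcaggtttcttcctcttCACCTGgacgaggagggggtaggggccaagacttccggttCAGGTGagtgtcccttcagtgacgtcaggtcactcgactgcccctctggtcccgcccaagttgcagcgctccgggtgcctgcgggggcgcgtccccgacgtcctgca
Elf3 promoter: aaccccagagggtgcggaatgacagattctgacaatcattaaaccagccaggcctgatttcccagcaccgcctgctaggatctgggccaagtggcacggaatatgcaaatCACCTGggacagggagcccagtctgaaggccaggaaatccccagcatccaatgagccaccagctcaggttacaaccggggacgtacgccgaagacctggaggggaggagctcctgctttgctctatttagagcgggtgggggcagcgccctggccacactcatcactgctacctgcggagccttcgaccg

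The E-box stood in 4 of the 5 printed windows, 2 times each in Epcam and Cldn7 and 1 time each in Cldn3 and Elf3, against 20.2% of the 32851 RefSeq promoter windows of the same length. ACCGGT occurred 2 times in the Epcam window, at -174 and -131 from the start, and 2.33% of all windows held it. AACCGG or its reverse complement CCGGTT, a shorter form of the grainyhead-like motif, was found in the Cldn7 window at -63 and in the Elf3 window at -68, with 6.83% of all windows holding it. CGGAAG or its reverse complement CTTCCG, an ETS core, was found in both Cldn7 windows and in 16.9% of all windows. The Cldn1 window held none of these letters. The window of the other Cldn7 start, which is where the annotated gene begins (chr11:69964779), held no E-box. All searches covered both strands, the CTTCCG and CCGGTT matches of the printed Cldn7 window overlap, and a match describes letters, not binding.

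The values are GCRMA expression values on a log2 scale, on which the lowest value is 2.27 and a difference of 1 is a 2-fold change. Some probe sets seem to have a higher floor of their own. Cd3e was at 5.57 with an SD of 0 at day 4, and Tjp3 at 5.05 with an SD of 0.003 at day 7. A value above 2.27, or above 4, therefore need not mean detection. The arrays carried epithelial RNA in every group. Krt8, a keratin of thymic epithelium, was at 13.26 ± 0.02 (SD, n = 3) in untreated arrays, and Foxn1, the factor that defines thymic epithelium, was at 8.60 ± 0.08 (SD, n = 3). RNA of blood cells was present as well: Ptprc, which encodes CD45, was at 12.22 ± 0.25 in untreated, 4.64 ± 0.53 at day 4 and 9.51 ± 0.22 at day 7 (SD, n = 3 each). The mean of 12 thymocyte genes ran from 9.36 to 9.73 in untreated, 3.38 to 3.71 at day 4 and 6.92 to 7.08 at day 7. At day 4, Cd4, Cd8a, Cd8b1, Rag1, Rag2, Ptcra and Themis were under 4 on all 3 arrays, and at day 7 Cd4 and Rag2 were. The mean of 11 endothelial genes ran from 4.11 to 5.77 in untreated, 5.04 to 5.78 at day 4 and 7.17 to 7.30 at day 7. These shifts move with the time points, and their part in the results below was not tested. In bulk samples, fewer cells of a type and less RNA per cell cannot be told apart.

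Because of this, differences are given on 2 scales. The first is the deposited scale. The second, called the epithelial scale, subtracts from each array the mean of 14 thymic epithelial reference genes, among them Foxn1, Krt8, Krt18 and Psmb11 and none of the 10 genes described. That mean was 11.62, 11.63 and 11.70 in untreated arrays, 12.31, 12.31 and 12.24 at day 4, and 12.31, 12.29 and 12.24 at day 7. The median difference of all tested genes from untreated was 0.20 at day 4 and 0.089 at day 7 on the deposited scale. It was -0.44 and -0.54 on the epithelial scale, so that a fall there is read against a general fall. The reference genes include Krt5, which medullary cells also express, but none of the medullary epithelial genes listed below. All 10 of those were lower on this scale at day 7. A fall on this scale is therefore a fall against the 14 genes, not against thymic epithelium as a whole.

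On the deposited scale the 10 genes moved in different directions. At day 4, 3 of 10 were higher than in untreated arrays (Cdh1, Grhl2 and Trp63) and 0 were lower at an adjusted p below 0.05 in limma; at an unadjusted p below 0.05 the counts were also 3 and 0. Of all tested genes, 41.8% were higher and 21.4% lower. At day 7, 2 of 10 were higher (Grhl2 and Trp63) and 4 lower (Cldn3, Cldn7, Ehf and Elf3), beside 32.1% higher and 22.0% lower among all tested genes. From day 4 to day 7, 0 rose and 2 fell (Grhl2 and Ehf), beside 9.78% and 17.6% of all tested genes; at an unadjusted p below 0.05, 0 were higher and 4 lower. The median difference of the 10 genes was -0.10 at day 4, -0.33 at day 7 and -0.31 between day 7 and day 4. That of all tested genes was 0.20, 0.089 and -0.10.

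**Figure D1:**
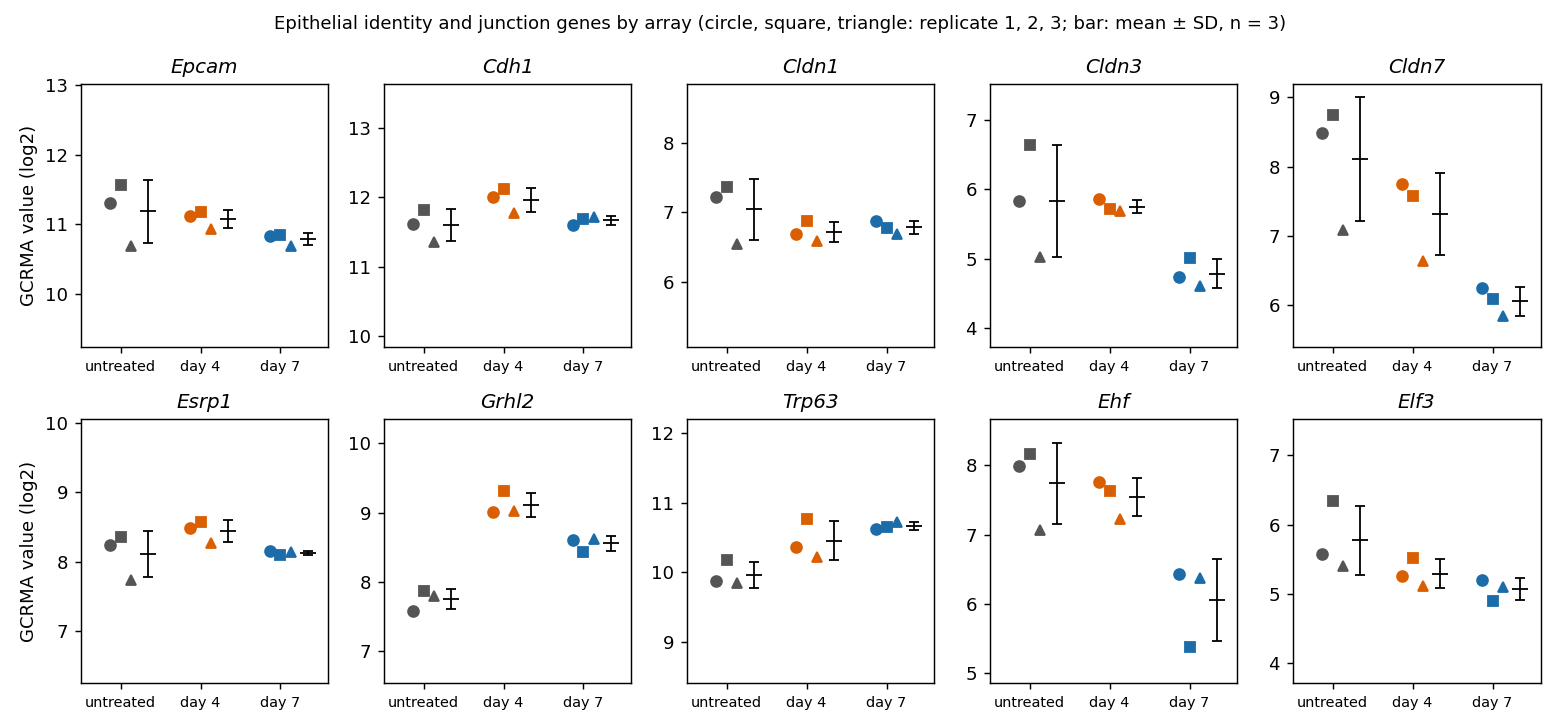
GCRMA values (log2, y axis) of the 10 genes on each of the 9 arrays (symbols: replicates 1, 2 and 3) in the untreated, day 4 and day 7 groups, with the mean ± SD of 3 arrays; all panels span the same number of log2 units, but start at different levels. Grhl2 is higher on every irradiated array than on any untreated array, and Cldn7 and Ehf are lowest on the 3 day 7 arrays.

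Untreated replicate 3 stood apart from the other untreated arrays. It was the lowest of the untreated arrays for 9 of the 10 genes, Grhl2 being the exception. Its mean over 10 medullary epithelial genes was 7.32 against 8.31 and 8.51, and its mean over 11 endothelial genes was 5.77 against 4.11 and 4.23. The reference genes did not follow this, at 11.70 against 11.62 and 11.63. Results that rest on this array are given with and without it. It is the lowest untreated array for most of these genes, so leaving it out raises their untreated mean by construction. Calls of a fall gained that way also rest on fewer untreated arrays, and they show only how far a result depends on this array.

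The adhesion molecules gave 1 call on the deposited scale, a rise of Cdh1 at day 4. Cdh1 read 11.62, 11.81 and 11.36 on the untreated arrays, 12.01, 12.11 and 11.77 at day 4, and 11.60, 11.69 and 11.72 at day 7. The day 4 arrays lay highest, although the lowest of them fell just under the highest untreated array. The day 4 difference was 0.36 (SE 0.13, adjusted p = 0.040), and it turned to -0.27 (adjusted p = 0.11) on the epithelial scale. That call also ended when any array but untreated replicate 2 or day 4 replicate 3 was left out (adjusted p from 0.054 to 0.13), when only untreated and day 4 arrays were fitted (adjusted p = 0.079), when arrays were centred on the kept genes (0.26, adjusted p = 0.086) and when no filter on dim genes was used (adjusted p = 0.080). At day 7 the difference was 0.070 (95% interval -0.23 to 0.37, adjusted p = 0.68).

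Epcam read 11.30, 11.56 and 10.69 on the untreated arrays, 11.12, 11.18 and 10.93 at day 4, and 10.83, 10.84 and 10.69 at day 7. The groups overlapped, with untreated replicate 3 as low as the lowest day 7 array. The difference from untreated was -0.11 at day 4 (95% interval -0.55 to 0.34, adjusted p = 0.66) and -0.40 at day 7 (95% interval -0.84 to 0.047, adjusted p = 0.11). Without untreated replicate 3 both passed, at -0.35 (adjusted p = 0.033) and -0.65 (adjusted p = 0.0029). The other Epcam probe set, 1447899_x_at, ran the other way in its group means, at 6.94 ± 0.49 in untreated, 7.17 ± 0.10 at day 4 and 7.23 ± 0.15 at day 7 (SD, n = 3 each), and was not called either (adjusted p = 0.37 and 0.28). Its suffix says that some of its probes may match other transcripts.

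Of the 3 claudins described, Cldn3 and Cldn7 fell at day 7 and Cldn1 was not called. Cldn7 read 8.49, 8.75 and 7.09 on the untreated arrays, 7.74, 7.58 and 6.65 at day 4, and 6.25, 6.09 and 5.84 at day 7. All 3 day 7 arrays lay below every other array, and the day 4 arrays overlapped untreated replicate 3. The day 7 difference was -2.05 (SE 0.43, adjusted p = 0.0037), a 4.13-fold lower value. The day 4 difference was -0.78 (95% interval -1.76 to 0.19, adjusted p = 0.14), and -1.30 without untreated replicate 3 (adjusted p = 0.0065). Between day 7 and day 4 it was -1.26 (adjusted p = 0.057, and 0.010 without untreated replicate 3).

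Cldn3 read 5.84, 6.65 and 5.03 on the untreated arrays, 5.86, 5.72 and 5.69 at day 4, and 4.74, 5.01 and 4.60 at day 7. The untreated arrays spread widely, and the lowest of them lay just above the highest day 7 array. The day 4 difference was -0.085 (95% interval -0.84 to 0.67, adjusted p = 0.84) and the day 7 difference -1.05 (SE 0.33, adjusted p = 0.025). Leaving out untreated replicate 1, day 7 replicate 1 or day 7 replicate 3 ended the day 7 call, with adjusted p = 0.062, 0.064 and 0.076, as did testing with no filter (0.087), quantile normalization (0.057) and fitting untreated and day 7 alone (0.058). From day 4 to day 7 the difference was -0.97 (adjusted p = 0.059, and 0.0089 without untreated replicate 3). The probe set used, 1460569_x_at, may also match other transcripts. A second one, 1451701_x_at, was lower at day 7 as well (-0.83, adjusted p = 0.023), while 1434651_a_at was not called (-0.27, adjusted p = 0.17). The latter read 4.37 on untreated replicate 3, day 4 replicate 3 and day 7 replicate 2 alike, so it may have been near its own floor.

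Cldn1 read 7.21, 7.36 and 6.54 on the untreated arrays, 6.69, 6.87 and 6.59 at day 4, and 6.88, 6.77 and 6.69 at day 7. The irradiated arrays lay within the untreated range. The differences of -0.33 at day 4 (95% interval -0.77 to 0.12, adjusted p = 0.17) and -0.26 at day 7 (95% interval -0.70 to 0.18, adjusted p = 0.29) were within the spread. Without untreated replicate 3 they were -0.57 (adjusted p = 0.0031) and -0.51 (adjusted p = 0.0073). The other 3 Cldn1 probe sets stayed near the floor on all arrays.

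Among the regulators, Grhl2 rose with the smallest adjusted p of the 10 genes. It read 7.59, 7.87 and 7.80 on the untreated arrays, 9.01, 9.31 and 9.02 at day 4, and 8.61, 8.44 and 8.62 at day 7. The 3 groups did not overlap, with day 4 highest and day 7 in between. The difference was 1.36 at day 4 (SE 0.12, adjusted p = 1.9e-05), a 2.56-fold higher value, and 0.80 at day 7 (SE 0.12, adjusted p = 6.3e-04). Centring each array on the means of 4 stromal lists, epithelial, fibroblast, endothelial and pericyte, kept the day 4 call and turned the day 7 difference to -0.46 (adjusted p = 0.063). From day 4 to day 7 Grhl2 fell by 0.56 (SE 0.12, adjusted p = 0.010), a call that ended when all 4 Grhl2 probe sets were averaged (-0.19, adjusted p = 0.22). The other 3 stayed below 4 on every array.

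Trp63, which encodes p63, read 9.87, 10.18 and 9.84 on the untreated arrays, 10.37, 10.77 and 10.23 at day 4, and 10.62, 10.66 and 10.73 at day 7. Every irradiated array lay above every untreated array. The difference was 0.49 at day 4 (SE 0.15, adjusted p = 0.018) and 0.71 at day 7 (SE 0.15, adjusted p = 0.0039). The day 4 call ended without untreated replicate 1, untreated replicate 3 or day 4 replicate 2 (adjusted p = 0.060, 0.054 and 0.053), and the difference turned to -0.15 on the epithelial scale (adjusted p = 0.41). Centred on the 4 stromal lists, the day 7 difference turned to -0.55 (adjusted p = 0.040), a fall against those lists. They include the endothelial genes, whose mean ran from 4.11 to 5.77 in untreated and from 7.17 to 7.30 at day 7.

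A second Trp63 probe set, 1459581_at, gave another time course. It read 5.78, 6.47 and 6.05 on the untreated arrays, 7.27, 7.46 and 6.88 at day 4, and 6.41, 6.02 and 5.77 at day 7. The day 4 arrays stood alone at the top, and the day 7 arrays lay among or just below the untreated ones. It was higher at day 4 by 1.11 (SE 0.23, adjusted p = 0.0027) and fell by 1.14 from day 4 to day 7 (adjusted p = 0.0089). The probe set 1452027_a_at, close to the lower limit of the tested range, was higher at day 7 by 0.77 (adjusted p = 0.029). Of the 3 tested Trp63 probe sets, 2 were therefore higher at day 4 and 2 at day 7, and they are not the same pair.

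Ehf was lower at day 7. It read 7.99, 8.15 and 7.07 on the untreated arrays, 7.75, 7.63 and 7.23 at day 4, and 6.43, 5.37 and 6.37 at day 7. The day 4 values lay within the untreated range and all day 7 values below it. The difference was -0.20 at day 4 (95% interval -0.99 to 0.58, adjusted p = 0.63) and -1.68 at day 7 (SE 0.35, adjusted p = 0.0034), a 3.20-fold lower value. From day 4 to day 7 it fell by 1.48 (SE 0.35, adjusted p = 0.015), and this call ended without day 4 replicate 1 (adjusted p = 0.051) or with no filter on dim genes (adjusted p = 0.064). All 3 tested Ehf probe sets were lower at day 7, by -1.68, -1.15 and -1.31. Of the other probe sets, 1419475_a_at and 1419474_a_at were at -0.70 (adjusted p = 0.063) and -0.67 (adjusted p = 0.076) at day 4, and neither was called from day 4 to day 7 (-0.45, adjusted p = 0.29, and -0.64, adjusted p = 0.15).

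Elf3 also fell by day 7. It read 5.58, 6.34 and 5.41 on the untreated arrays, 5.25, 5.52 and 5.11 at day 4, and 5.21, 4.90 and 5.10 at day 7. All day 7 arrays lay below all untreated arrays, while day 4 overlapped both. The difference was -0.48 at day 4 (SE 0.23, adjusted p = 0.094) and -0.70 at day 7 (SE 0.23, adjusted p = 0.028). The day 7 call ended without day 7 replicate 2 (adjusted p = 0.090) or day 7 replicate 3 (adjusted p = 0.062), with no filter (0.087), after quantile normalization (0.067) and with untreated and day 7 fitted alone (0.052). Without untreated replicate 3 the day 4 difference was -0.67 (adjusted p = 0.032).

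Esrp1 was not called in any of the 3 comparisons on the deposited scale. It read 8.24, 8.36 and 7.74 on the untreated arrays, 8.49, 8.57 and 8.26 at day 4, and 8.15, 8.09 and 8.13 at day 7. The day 4 group overlapped the untreated one, and the day 7 group lay within it. The difference was 0.33 at day 4 (95% interval -0.028 to 0.69, adjusted p = 0.096) and 0.014 at day 7 (95% interval -0.34 to 0.37, adjusted p = 0.95), and both turned negative on the epithelial scale.

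**Figure D2:**
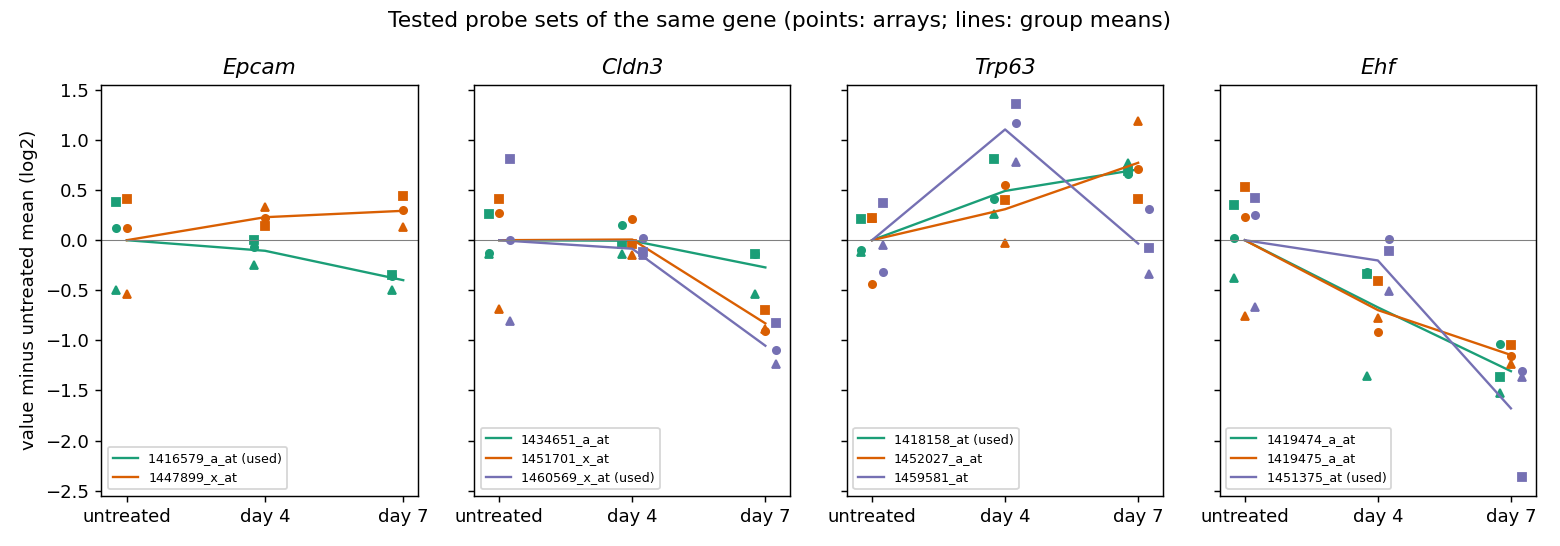
Tested probe sets of Epcam, Cldn3, Trp63 and Ehf, as the value minus the untreated mean of the same probe set (log2, y axis) by group (x axis); symbols are the 3 arrays of each group and lines join the group means. The 3 Ehf probe sets are all lower at day 7, while the Trp63 probe set 1459581_at rises by 1.11 at day 4 and returns to the untreated level.

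Over all 17 tested probe sets of the 10 genes, 4 were higher and 0 lower at day 4, 3 higher and 7 lower at day 7, and 0 higher and 4 lower between day 7 and day 4. Of all tested probe sets, 61.4%, 52.5% and 24.3% were called in either direction in these comparisons. The 9 untested probe sets read at most 3.56 on any array.

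The 10 genes were also set against the reference genes of thymic epithelium. At day 4, Grhl2 was higher (0.72, SE 0.12, adjusted p = 5.4e-04) and 4 of 10 were lower: Epcam (-0.74), Cldn1 (-0.96), Cldn7 (-1.42) and Elf3 (-1.12). On this scale 13.2% of all tested genes were higher and 55.4% lower at day 4. At day 7, 0 of 10 were higher, also at an unadjusted p below 0.05, and 8 were lower, beside 7.88% higher and 64.4% lower among all tested genes. The 8 were Epcam (-1.03), Cdh1 (-0.56), Cldn1 (-0.89), Cldn3 (-1.68), Cldn7 (-2.68), Esrp1 (-0.62), Ehf (-2.31) and Elf3 (-1.33).

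Cldn7 and Ehf had the largest falls against the reference genes, at 6.39-fold and 4.95-fold lower than in untreated arrays. Grhl2 and Trp63 were the exceptions at day 7, with differences of 0.17 (95% interval -0.098 to 0.44, adjusted p = 0.22) and 0.077 (95% interval -0.26 to 0.42, adjusted p = 0.66). From day 4 to day 7, Grhl2 (-0.55) and Ehf (-1.47) were lower on this scale too, beside 9.65% of all tested genes higher and 15.2% lower. The median of the 10 genes was -0.73 at day 4 and -0.96 at day 7.

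**Figure D3:**
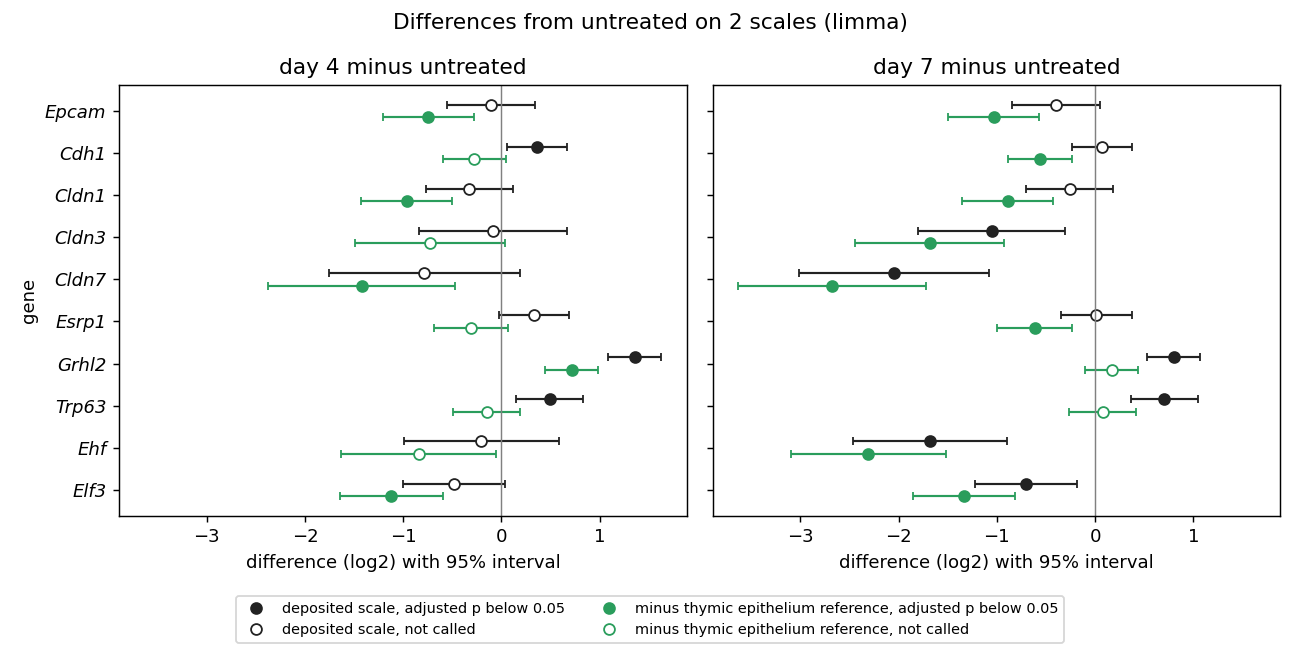
Difference from untreated (log2, x axis) of the 10 genes (y axis) at day 4 and day 7, with 95% intervals from limma, on the deposited scale (black) and after subtracting the 14 reference genes of thymic epithelium (green); filled circles have an adjusted p below 0.05. Cldn7, Ehf, Cldn3 and Elf3 lie below 0 at day 7 on both scales, while Cdh1, Esrp1 and, at day 4, Trp63 change sign between scales.

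Most of the listed medullary epithelial genes had fallen by day 7. The mean of 10 such genes was 8.31, 8.51 and 7.32 on the untreated arrays, 7.51, 7.48 and 7.19 at day 4, and 6.71, 6.61 and 6.52 at day 7. Of these 10 genes, 5 were lower and 1 higher at day 4, the higher one being Dclk1 (0.43, adjusted p = 0.040). At day 7, 8 were lower and 0 higher, also 0 higher at an unadjusted p below 0.05. Of all tested genes, 21.4% were lower and 41.8% higher at day 4, and 22.0% lower and 32.1% higher at day 7. Aire, the regulator of self-antigen expression in the medulla, was lower by -1.97 at day 7 (SE 0.31, adjusted p = 8.0e-04), and the keratin gene Krt14 by -1.15 (SE 0.21, adjusted p = 0.0017). In contrast, 12 of the 14 reference genes were higher at day 7 and 0 lower, with none lower at an unadjusted p below 0.05. Among them, Krt5, a keratin gene that medullary cells also express, went the other way from Krt14. It was higher by 1.74 at day 4 (SE 0.20, adjusted p = 8.7e-05). At day 7 Krt5 was higher by 0.68 (SE 0.20, adjusted p = 0.018). The mean of 4 macrophage and dendritic cell genes fell as the medullary mean did. It ran from 6.56 to 7.26 in untreated, 6.06 to 6.29 at day 4 and 5.79 to 5.89 at day 7. At day 7, 3 of the 4 were lower, while Csf1r was not called (0.22, adjusted p = 0.37). These 4 were the tested ones of 10 listed, and the dendritic cell gene Itgax was not bright enough to be tested. The mean of 6 mesothelial genes rose instead, from 6.14 to 6.56 in untreated to 7.71 to 8.27 at day 7. The part of these shifts in the fall of Cldn3, Cldn7, Ehf and Elf3 was not tested.

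The rest of the junction programme was read from 6 lists holding 83 genes, of which 65 were tested. At day 4, 36 of the 65 were higher and 2 lower, with a median difference of 0.48. At day 7, 22 were higher and 13 lower, with a median of 0.18. Between day 7 and day 4, 1 was higher and 24 lower, with a median of -0.38. Of all tested genes, 41.8% were higher and 21.4% lower at day 4, with a median of 0.20. At day 7, 32.1% were higher and 22.0% lower, with a median of 0.089. From day 4 to day 7, 9.78% were higher and 17.6% lower, with a median of -0.10. The day 7 counts lie near these shares, and the counts of every list below are read against the same shares. On the epithelial scale the day 4 counts turned to 6 higher and 22 lower and the day 7 counts to 5 higher and 33 lower. The shares of all tested genes on that scale were 13.2% higher and 55.4% lower at day 4, and 7.88% higher and 64.4% lower at day 7, so the turn of the lists goes with a general fall.

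Of 18 other tight junction genes, 9 were higher and 0 lower at day 4, with 0 lower also at an unadjusted p below 0.05, and 8 were higher and 4 lower at day 7. Pard3, which encodes a polarity scaffold, was higher by 1.67 at day 4 (SE 0.11, adjusted p = 4.4e-06) and by 1.18 at day 7. Cgn, encoding the cytoplasmic plaque protein cingulin, was higher by 1.27 and 0.45, and Tjp1, encoding the scaffold ZO-1, by 0.70 and 0.96. The 4 lower genes at day 7 were Cldn4, Cldn9, Marveld2 and Tjp3. The values of these claudins, of Cldn12 and of Tjp3 were chosen for mention after they were seen: Cldn9 was lower by -1.58 (SE 0.32, adjusted p = 0.0034), and Cldn4 by -1.48 (SE 0.32, adjusted p = 0.0039) with all 3 day 7 arrays under 4. Cldn12 went the other way, higher by 0.69 at day 7 (SE 0.12, adjusted p = 0.0014), and Tjp3, a scaffold gene, was lower by -1.64 (SE 0.25, adjusted p = 7.5e-04). On the epithelial scale 2 of the 18 were higher and 6 lower at day 4, and 2 higher and 8 lower at day 7.

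Of 9 other adherens junction genes, 8 were higher and 0 lower at day 4, and 6 higher and 0 lower at day 7, with 0 lower also at an unadjusted p below 0.05. Jup, encoding plakoglobin, was higher by 1.31 at day 4 (SE 0.10, adjusted p = 9.2e-06) and by 0.84 at day 7. Cdh3, encoding P-cadherin, was higher by 0.92 and 0.74. Nectin4 read 4.49, 4.13 and 4.23 at day 4 and lay under 4 on all untreated and day 7 arrays. It could be tested only because of its day 4 values. Its place among the 8 higher genes, and among the 36 of 65 above, was thus favoured by the filter and carries no weight. Against the reference genes 2 of the 9 were higher and 2 lower at day 4, and 0 higher and 4 lower at day 7.

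Of 10 desmosome genes, 5 were higher and 0 lower at day 4, with 0 lower also at an unadjusted p below 0.05, and 2 were higher and 1 lower at day 7. The desmosomal cadherin genes Dsc3 and Dsc2 were higher by 1.27 and 0.998 at day 4 and by 1.02 and 0.89 at day 7. Pkp1, encoding a plakophilin, was higher by 0.56 at day 4 (adjusted p = 0.0040) and differed by -0.14 at day 7 (adjusted p = 0.39). Measured on the epithelial scale, 1 was higher and 5 lower at day 4, and 1 higher and 6 lower at day 7.

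Of 7 hemidesmosome genes, 4 were higher and 1 lower at day 4, and 3 higher and 2 lower at day 7. The tetraspanin gene Cd151 was higher by 0.91 and 0.94. Itga6, encoding an integrin chain that thymocytes also carry, was lower by -0.74 and -0.45. Col17a1, a hemidesmosomal collagen gene, read 6.12, 6.04 and 4.99 on the untreated arrays and 4.26, 3.96 and 3.73 at day 7, where 2 of 3 arrays lay under 4 (adjusted p = 9.4e-04). Set on the epithelial scale, 0 were higher and 3 lower at day 4, and 1 higher and 4 lower at day 7.

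Of 8 other epithelial regulators, 5 were higher and 0 lower at day 4, with 0 lower also at an unadjusted p below 0.05, and 1 was higher (Klf4) and 1 lower (Foxa1) at day 7. Grhl1, a relative of Grhl2, was higher by 0.81 at day 4 (SE 0.17, adjusted p = 0.0031) and fell by 0.70 from day 4 to day 7 (adjusted p = 0.018). The RNA-binding protein gene Rbm47 was higher by 0.69 and the AP-2 factor gene Tfap2a by 1.19 at day 4, and neither was called at day 7 (adjusted p = 0.085 and 0.16). On the epithelial scale 0 of the 8 were called at day 4, and 0 were higher and 4 lower at day 7.

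Of 13 genes of the epithelial surface and traffic, 5 were higher and 1 lower at day 4, and 2 higher and 5 lower at day 7. The guanine nucleotide exchange factor gene Arhgef16 was higher by 0.95 and 0.96. Tmem30b was higher by 0.86 at day 4 and differed by 0.23 at day 7 (adjusted p = 0.22). Cd24a, which thymocytes also express, was lower by -0.49 and -1.09. Relative to the reference genes 1 of the 13 was higher and 6 lower at day 4, and 1 higher and 7 lower at day 7.

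Of 8 tested genes of mesenchymal transition, 7 were higher and 0 lower at day 4, and 6 higher and 0 lower at day 7, with 0 lower also at an unadjusted p below 0.05. On the epithelial scale 3 were higher and 1 lower at both times. The stroma holds fibroblasts, which express most of these genes, and the mean of 11 fibroblast genes was 10.18 to 10.67 in untreated, 11.17 to 11.65 at day 4 and 10.94 to 11.27 at day 7. Of these 11 genes, 10 were higher and 1 lower at both times. The lower one was Thy1 (-2.61 at day 4 and -1.37 at day 7), so the mean understates the rise of the others. The same list, with Thy1, is part of the 4 stromal lists. Fn1 was higher by 1.60 and 0.96, Vim by 0.65 and 1.07, and Snai2, a repressor of Cdh1 that basal epithelium also expresses, by 0.64 and 0.63. Snai1, Twist2, Grhl3, Ovol1 and Ovol2 were under 4 on all arrays.

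**Figure D4:**
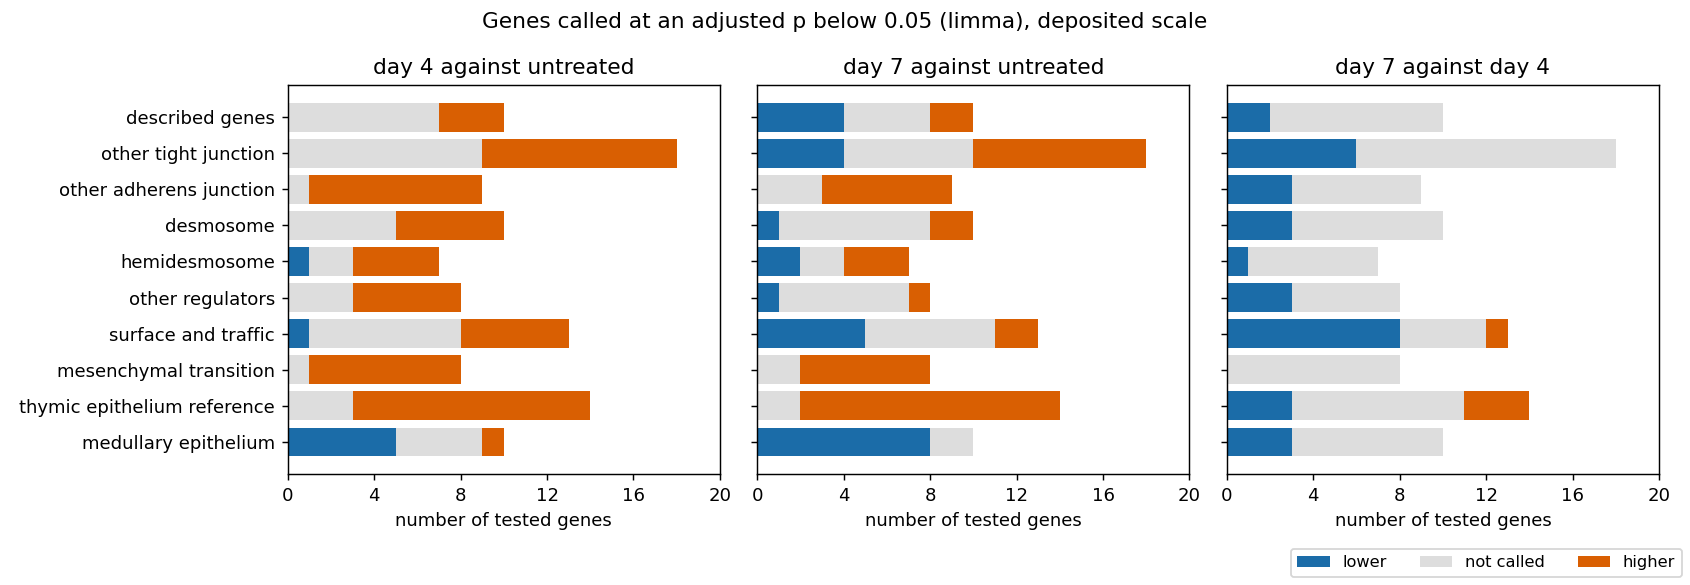
Number of tested genes (x axis) called lower (blue), not called (grey) and called higher (orange) at an adjusted p below 0.05 in limma, for the 10 described genes and 9 gene lists (y axis) in each comparison on the deposited scale. At day 4 the junction lists are higher or not called, apart from 1 lower gene in each of the hemidesmosome and surface lists. The medullary list has 5 lower genes at day 4. Among all tested genes 41.8% were higher and 21.4% lower at day 4. On the epithelial scale 6 of the 65 genes of the 6 junction lists are higher at day 4 and 22 lower, beside 55.4% lower among all tested genes.

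Likeness of time course was measured as the root mean square difference between group means over the 3 groups, each gene centred on its own mean, so that small values are alike. The genes nearest to Cldn3 were Muc4 (0.031) and Lad1 (0.039), and those nearest to Ehf were Foxa1 (0.031) and Rgs13 (0.045). Muc4 encodes a membrane mucin and Lad1 an epithelial anchoring protein. Nearest to Cldn7 were Lyz2, a gene of the macrophage and dendritic cell list, and Alox12e. Those nearest to Grhl2 were Vamp5 and Tor3a, to Trp63 Manbal and Id4, and to Elf3 Stard3 and Plcg1. Nearest to Epcam were Atp6v1c1 and Zfp35, to Cdh1 Otud5 and Smox, to Cldn1 Rpia and Atg16l1, and to Esrp1 Ctsd and Ttc7b. With 3 group means many genes fit any course closely, and the order among them carries little.

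The signal of 3′ probes over 5′ probes, a measure of RNA length, was higher at day 4. For Actb it was 2.45, 2.23 and 2.16 in untreated, 3.01, 3.32 and 3.07 at day 4, and 2.53, 2.30 and 2.71 at day 7, as a log2 difference. The day 4 arrays lay above all others for Actb, and the part of this in the day 4 differences was not tested.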

How the data were processed

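Total RNA from 9 samples (3 untreated, 3 at day 4, 3 at day 7) was labelled as biotinylated cRNA and hybridised to Affymetrix MOE 430 2.0 arrays, per the labels' protocols. The authors' deposited values are log2 expression values from GCRMA, per the submitters' processing notes, whose version is not given in the sources used here. Their range was taken to show base 2. GCRMA removes background by probe sequence, which gathers undetected probe sets near a floor that can differ between probe sets. Precision is limited by having 3 arrays a group.

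Probe sets with 1 gene symbol were kept (34945 of 45101; 932 had several, 9160 none and 64 were controls). Each gene was represented by the probe set of highest mean, and genes reaching 4 on at least 3 arrays were tested (10937 of 18193). limma 3.58.1 in R 4.3.3 fitted the 3 groups together, and p-values were adjusted by Benjamini-Hochberg over all tested genes at a threshold of 0.05. In simulated data with the spread of these arrays, 85% of 100 changes of log2 size 1 were recovered for day 4 against untreated among 10937 genes. Of 100 changes of size 2, 92% were recovered, and 0.158% of unchanged genes were called. The simulation changed far fewer genes than were called in the data at day 4 (41.8% higher and 21.4% lower). Its arrays also shared no shifts, so these rates may not hold for the data.

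The genes described and all lists were chosen with earlier results of these data known. Named beside them are up to 3 genes of each of 7 lists with the smallest F-test adjusted p, the 2 genes nearest in time course, and genes of cell type lists where they stand beside a result. Alternatives tried were the dim-gene filter, the probe set rule, the variance trend, array weights, 4 other scalings, each array left out, the replicate number as a block, and 2 groups alone. Replicate numbers were checked: 9 same-numbered pairs had correlations of deviations from -0.12 to 0.18, 3 of them above 0.1. Differently numbered pairs ran from -0.29 to 0.21. The check gave no sign of pairing but cannot exclude it, as deviations within a group of 3 are tied to each other.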

Additional observations from a re-analysis of the deposited data

Results flagged for a closer look

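The responses at day 4 and day 7 were both measured against the same untreated arrays. They differed for 2 of the 10 genes by the limma contrast of day 7 with day 4, both lower. Of all tested genes, 9.78% were higher and 17.6% lower in this contrast, so the count lies near the general share. As given above, the Grhl2 call ended when all its probe sets were averaged. The Ehf call ended without day 4 replicate 1 or with no filter on dim genes. Grhl2 differed by -0.56 (adjusted p = 0.010), with all 3 day 7 arrays below all 3 day 4 arrays. Ehf differed by -1.48 (adjusted p = 0.015), again with no overlap between the groups, while the other 2 tested Ehf probe sets were not called in this contrast (-0.45 and -0.64). Groups of 3 arrays are too small for the check of single outlying samples.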

How the results depend on the processing

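Of the single-gene differences under all alternatives, 519 kept direction and side of the threshold, 50 gained a call, 29 lost it and 23 changed sign. Grhl2 kept its day 4 call, and Cldn7 and Ehf their lower day 7 call, under every alternative run. Centring on the thymic epithelium reference gave 1 gene higher and 4 lower at day 4, and 0 higher and 8 lower at day 7. It turned Cdh1 (-0.27), Esrp1 (-0.31) and Trp63 (-0.15) at day 4, and Cdh1 (-0.56) and Esrp1 (-0.62) at day 7. Centring on 4 stromal list means gave 1 higher and 5 lower at day 4, 0 higher and 9 lower at day 7, and 9 lower from day 4 to day 7. It turned Cdh1 (-0.23), Esrp1 (-0.26) and Trp63 (-0.100) at day 4. At day 7 it turned Cdh1 (-1.19), Esrp1 (-1.24), Grhl2 (-0.46) and Trp63 (-0.55), and from day 4 to day 7 Cldn1 (-0.60) and Trp63 (-0.45). Most of all genes called on the 4 stromal lists were lower in every comparison, by the shares at the end of this section. The lower counts of the described genes there go with that general fall. Centring on the kept genes gave 1 lower at day 4 and turned Esrp1 at day 7 (-0.022). Array weights gave 2 lower at day 4 and 6 lower from day 4 to day 7, and turned Esrp1 at day 7 (-0.078). The turns under centring follow from the shift of the genes subtracted. On the 4 stromal lists these include the endothelial genes, whose mean ran from 4.11 to 5.77 in untreated and from 7.17 to 7.30 at day 7. The cause of the changes under array weights was not tested. The mean of all probe sets turned Epcam at day 4 (0.062) and Trp63 from day 4 to day 7 (-0.096), with 1 lower there. With no filter 2 were lower at day 7 and 1 from day 4 to day 7. Quantile normalization, a level of 6, under which Cldn3 and Elf3 were not tested, and a fit of 2 groups alone each gave 2 lower at day 7; the last gave 5 lower from day 4 to day 7.

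Leaving out each array in turn gave 1 to 4 higher and 0 to 4 lower at day 4, 2 to 6 lower at day 7 and 1 to 5 lower from day 4 to day 7. Differences that changed sign there ranged at day 4 from -0.35 to 0.083 for Epcam, -0.49 to 0.32 for Cldn3 and -0.54 to 0.0059 for Ehf, and at day 7 from -0.049 to 0.18 for Cdh1 and -0.17 to 0.14 for Esrp1. With the replicate number as a block, 1 gene was lower at day 4 (Cldn7) and 4 were lower from day 4 to day 7, with Cldn3 and Cldn7 added. Of all called genes, the share called higher was 66.1% at day 4 and 59.3% at day 7 on the deposited scale, against 19.2% and 10.9% on the thymic epithelium reference and 20.9% and 1.76% on the 4 stromal lists; from day 4 to day 7 it was 35.8%, against 47.5% centred on the kept genes, 46.0% after quantile normalization and 3.87% on the stromal lists.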
